A study of Mus musculus with 6 samples.

Results

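The levels of 10 genes of choroid plexus epithelium were followed in 6 hippocampal RNA-seq libraries: Ttr, Kl, Folr1, Clic6, Aqp1, Kcnj13, Otx2, Prlr, Sostdc1 and Kcne2. They are 10 of the 37315 genes listed in the count files, and 26277 of those were detected at all. The genes were picked by name as markers of this tissue, with earlier results of the same libraries known. Prlr was selected on its own values, since it stood among the larger falls of the Fto comparison, and so the Fto comparison is given here as a description.

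The choroid plexus is a folded epithelium inside the brain ventricles that secretes cerebrospinal fluid. Its cells carry ion channels, transporters and water channels on their surface, and they release carrier proteins and signalling antagonists into the fluid. The plexus of the lateral ventricle lies along the edge of the hippocampus, while hippocampal tissue proper holds neurons, glia and vessels. If 2 libraries differed in these genes through the share of plexus RNA alone, members made only there would have equal log2 ratios within counting error. A member also made elsewhere in the dissected tissue would change by less. The comparisons below measure how far the ratios were equal. Libraries also differ gene by gene beyond counting error, and the counting intervals used below leave that out. An interval that misses the ratio of Ttr therefore does not by itself set a member apart. How much of each member's RNA came from outside the plexus was not tested. How much plexus each dissection held was not given in the sources used here.

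All libraries came from the hippocampus of C57BL/6J mice aged 4 weeks, with 1 library per group. In the Nestin-Cre experiment, Prrc2a flox/flox mice were set beside Prrc2a flox/flox mice with nestin-cre, a transgenic recombinase driven in neural progenitors and therefore acting in their progeny. In the Olig2-Cre experiment the same floxed genotype was set beside Prrc2a flox/flox;Olig2-cre mice, whose recombinase is expressed from the endogenous Olig2 locus, so that these mice also have reduced Olig2 dosage. The Fto experiment set wild-type mice (WT) beside mice with an Fto transgene (Fto Tg), a lentiviral insertion of the Fto coding sequence behind the broadly active ubiquitin C promoter. Prrc2a binds the RNA mark N6-methyladenosine, and Fto removes that mark. The floxed controls carry no Cre and are written f/f(N) for the Nestin-Cre experiment and f/f(O) for the Olig2-Cre experiment. Whether a library held 1 animal or a pool was not given in the sources used here.

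Library totals ran from 18616540 to 35482589 reads. Prrc2a was at 434 CPM (read counts scaled to the library total) in f/f(N) and 184 with Nestin-Cre, 389 in f/f(O) and 346 with Olig2-Cre, and 351 in WT and 334 in Fto Tg. Fto was at 354 CPM in Fto Tg and between 136 and 164 CPM in the other 5 libraries. The Nestin-Cre library stood apart from the rest: mitochondrial genes took 26.2% of its reads against 7.97% to 8.86% elsewhere, and its mean GC content, weighted by reads, was 45.7% against 48.5% to 49.2%. In that library the median gene lay 0.72 below its f/f(N) level on the log2 scale, so member ratios there are read against that shift. Their part in the values below was not tested.

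Beside the members, 24 further genes known from choroid plexus epithelium were read. Their detection does not test which cells the members mark. All 24 were detected in every library, from Enpp2, which makes lysophosphatidic acid and is also made by oligodendrocytes, at 334 to 1249 CPM, down to Lmx1a, a roof plate transcription factor, at 0.173 to 2.31 CPM. Their summed level was 1112 to 1496 CPM in the 3 control libraries, of which Enpp2 made up 789 to 1051 CPM. The detection floor, set at 3 reads, corresponded to 0.0845 to 0.161 CPM, so every member exceeded it in every library. The lowest member count was 15 reads.

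Per exon length, Ttr dominated the group. Its control level was 1758 ± 501 RPKM (CPM per kilobase of exon; mean ± SD over the 3 control libraries, n = 3), while the next gene, Clic6, was at 11.2 ± 1.46 RPKM. Kl, Folr1 and Sostdc1 were at 7.91 ± 1.40, 7.52 ± 2.53 and 7.48 ± 1.58 RPKM, and these 3 did not differ beyond their spread. Kcne2 at 5.23 ± 1.32 and Aqp1 at 4.53 ± 1.57 RPKM followed, with means within each other's spread. Within each control library Kcne2 was above Aqp1, at 6.35 and 5.84 RPKM in f/f(N), 5.58 and 4.96 in f/f(O), and 3.77 and 2.79 in WT. Otx2, Prlr and Kcnj13 closed the order at 2.33 ± 0.481, 2.07 ± 0.736 and 1.94 ± 0.413 RPKM. The 3 controls came from separate experiments and are not replicates of 1 genotype, so this spread also holds differences between experiments.

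The promoters of members found in the RefSeq table (GRCm38.p6) give the sequence context of genes that share a tissue but not a single pattern in these libraries. The table held 12 promoters for 6 of the 10 members, each running from 250 bases before to 50 bases after a transcription start. Of these, 4 are shown, 1 for each of a channel with a TATA-type element, the transcription factor of the group, a member that kept to Ttr and a member that departed from it.

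Kcnj13 (chr1:87394680-87394979, minus strand): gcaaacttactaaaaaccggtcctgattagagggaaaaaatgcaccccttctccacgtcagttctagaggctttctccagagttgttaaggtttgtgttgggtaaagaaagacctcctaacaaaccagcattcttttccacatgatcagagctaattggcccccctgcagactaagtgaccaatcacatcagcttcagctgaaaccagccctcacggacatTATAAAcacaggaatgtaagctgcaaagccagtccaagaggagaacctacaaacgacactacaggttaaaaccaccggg

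Otx2 (chr14:48665060-48665359, minus strand): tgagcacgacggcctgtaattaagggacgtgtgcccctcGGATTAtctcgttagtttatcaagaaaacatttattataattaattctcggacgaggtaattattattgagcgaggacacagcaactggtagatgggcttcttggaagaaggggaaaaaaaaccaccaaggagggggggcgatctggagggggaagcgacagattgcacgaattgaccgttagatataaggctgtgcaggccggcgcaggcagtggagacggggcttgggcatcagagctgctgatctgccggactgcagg

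Aqp1 (chr6:55336049-55336348, plus strand): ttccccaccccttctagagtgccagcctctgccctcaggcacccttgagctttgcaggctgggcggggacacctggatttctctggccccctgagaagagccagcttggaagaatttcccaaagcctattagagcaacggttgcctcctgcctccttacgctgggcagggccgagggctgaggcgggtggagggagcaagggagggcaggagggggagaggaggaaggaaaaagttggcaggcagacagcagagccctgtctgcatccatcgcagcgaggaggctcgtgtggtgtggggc

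Prlr (chr15:10176988-10177287, plus strand): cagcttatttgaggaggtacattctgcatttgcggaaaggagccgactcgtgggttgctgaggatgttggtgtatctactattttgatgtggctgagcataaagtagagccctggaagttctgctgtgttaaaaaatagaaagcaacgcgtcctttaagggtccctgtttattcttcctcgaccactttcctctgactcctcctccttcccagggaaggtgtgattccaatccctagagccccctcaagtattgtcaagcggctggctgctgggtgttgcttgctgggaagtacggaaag

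Capitals mark the letters searched. The core letters bound by OTX-type homeodomain proteins, TAATCC or GGATTA on the other strand, occurred in 1 of the 12 member promoters, an Otx2 start, where the match began 211 bases before the start. Over all 32851 promoters of that length in the table, 7.06% held them. TATAAA, searched on the sense strand, began 29 bases before the Kcnj13 start and 192 bases before another Otx2 start, against 8.32% of all promoters. GC content of the 12 ran from 35.3% at a Prlr start to 67.3% at the Kl start. A match describes letters in these windows and is no evidence of binding.

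Ttr encodes transthyretin, which carries thyroxine and retinol-binding protein in cerebrospinal fluid (chr18:20665280-20674321, plus strand, GRCm38). It had 2710 CPM in f/f(N), 211 with Nestin-Cre, 2014 in f/f(O), 3206 with Olig2-Cre, 1529 in WT and 641 in Fto Tg. The 2 lowest libraries were Nestin-Cre and Fto Tg, the highest was Olig2-Cre, and at this depth no 2 libraries had overlapping 95% Wilson intervals. Those intervals, here and below, cover counting error only. Highest and lowest libraries differed 15.2-fold.

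Sostdc1 and Kl are the other members with extracellular roles. Sostdc1 is a secreted antagonist of BMP and Wnt signalling (chr12:36314139-36318452, plus strand), and its level was 15.4 CPM in f/f(N), 5.93 with Nestin-Cre, 14.4 in f/f(O), 23.3 with Olig2-Cre, 10.1 in WT and 5.50 in Fto Tg. The order followed Ttr except at the bottom, where the intervals of Nestin-Cre and Fto Tg overlapped. Those of f/f(N) and f/f(O) overlapped as well. Kl, or Klotho, is a co-receptor for fibroblast growth factor 23 whose ectodomain is shed (chr5:150952607-150993817, plus strand). It is also made by hippocampal neurons. Kl was at 76.3 CPM in f/f(N), 41.9 with Nestin-Cre, 85.4 in f/f(O), 94.97 with Olig2-Cre, 59.7 in WT and 28.0 in Fto Tg. Its range over the libraries, 3.39-fold, was the narrowest of the 10, and Fto Tg rather than Nestin-Cre was its lowest library.

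The receptors of the group are Folr1 and Prlr. Folr1 is the folate receptor that moves folate across the plexus (chr7:101858331-101870788, minus strand), and it was at 22.2 CPM in f/f(N), 1.496 with Nestin-Cre, 18.8 in f/f(O), 26.0 with Olig2-Cre, 10.8 in WT and 5.13 in Fto Tg. It ranged 17.4-fold, the widest of the 10, and ordered the libraries as Ttr did, though the intervals of Olig2-Cre and f/f(N) overlapped. Prlr is the prolactin receptor (chr15:10177238-10349180, plus strand), with 25.1 CPM in f/f(N), 12.4 with Nestin-Cre, 44.8 in f/f(O), 35.7 with Olig2-Cre, 25.3 in WT and 8.40 in Fto Tg. Prlr was the sole member whose highest library was f/f(O), and its f/f(N) and WT intervals overlapped. Of its 15339 exon bases, 203 are shared with the gene model Gm21973 on the same strand, and reads on shared bases were not counted for either.

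Among the channels, Aqp1 is the water channel of the apical membrane (chr6:55336432-55348555, plus strand). Aqp1 was at 15.3 CPM in f/f(N), 1.15 with Nestin-Cre, 13.0 in f/f(O), 16.0 with Olig2-Cre, 7.34 in WT and 3.01 in Fto Tg. The 3 upper libraries could not be ordered, since neighbouring intervals overlapped, and the lower 3 were separate. Clic6 belongs to the chloride intracellular channel family (chr16:92485736-92541243, plus strand), with 47.5 CPM in f/f(N), 9.61 with Nestin-Cre, 46.6 in f/f(O), 69.2 with Olig2-Cre, 37.2 in WT and 15.1 in Fto Tg. Its 2 f/f libraries had overlapping intervals and Olig2-Cre stood above both.

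Kcne2, a beta subunit of potassium channels (chr16:92292389-92298129, plus strand), was at 11.2 CPM in f/f(N), 1.99 with Nestin-Cre, 9.85 in f/f(O), 12.6 with Olig2-Cre, 6.67 in WT and 2.87 in Fto Tg. As for Aqp1, the 3 upper libraries overlapped between neighbours. Kcnj13 encodes the inward rectifier Kir7.1 (chr1:87386363-87394729, minus strand) and was the weakest measured, at 100 reads in f/f(N), 39 with Nestin-Cre, 79 in f/f(O), 53 with Olig2-Cre, 47 in WT and 15 in Fto Tg. That is 2.82, 1.12, 2.72, 2.85, 1.87 and 0.430 CPM in the same order, and apart from Fto Tg each library overlapped its neighbour. Of its 1270 exon bases, 623 are shared with Gigyf2 on the opposite strand, and counting without strand discarded reads there, so its level is uncertain.

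Otx2 is the homeodomain transcription factor needed to form and maintain the plexus (chr14:48657677-48673819, minus strand). Its level was 10.5 CPM in f/f(N), 2.50 with Nestin-Cre, 11.4 in f/f(O), 15.5 with Olig2-Cre, 7.54 in WT and 3.27 in Fto Tg. The 2 f/f libraries overlapped, as did the 2 lowest libraries, and the range was 6.20-fold.

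**Figure D1:**
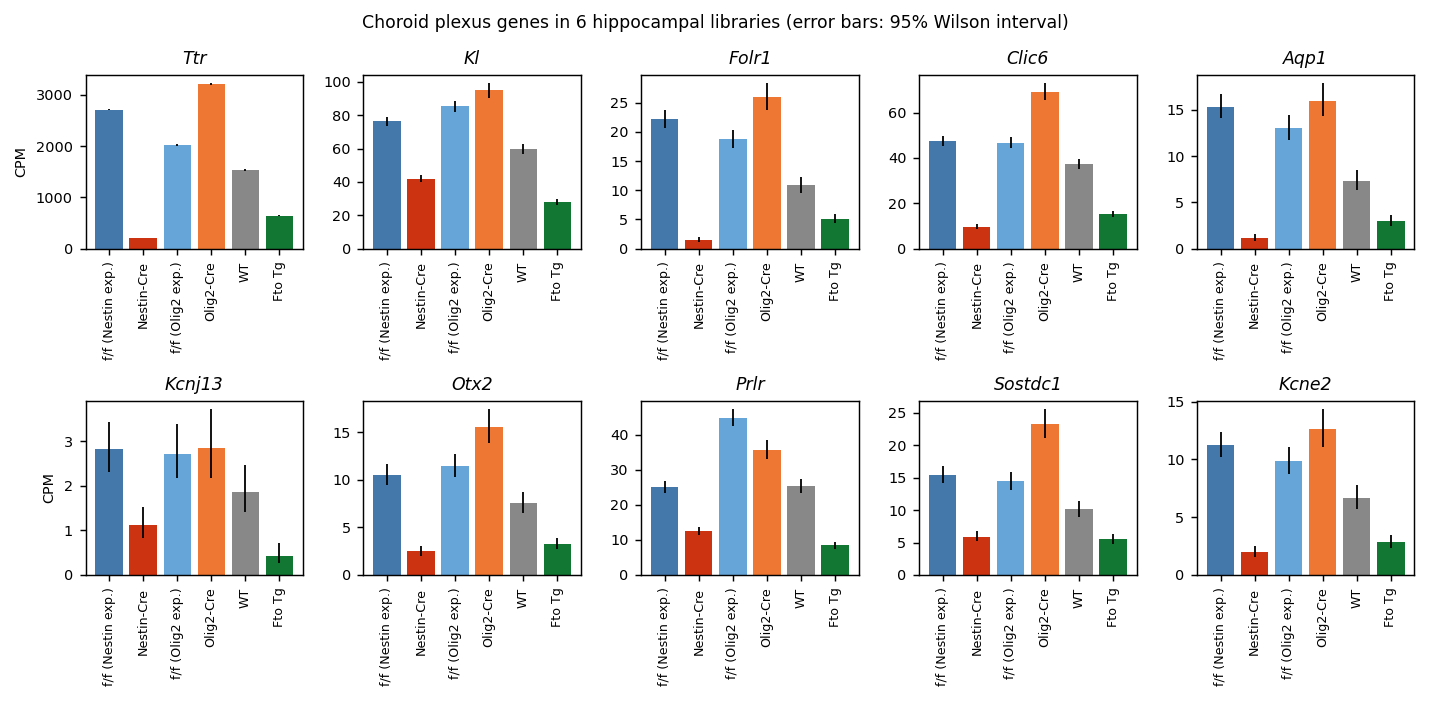
Levels of the 10 members in the 6 libraries, in CPM on a linear axis from 0 with a separate scale for each gene; error bars are 95% Wilson intervals. Nestin-Cre and Fto Tg hold the 2 lowest bars of every gene, and Olig2-Cre holds the highest bar of 9 genes.

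Across the 6 libraries the order was shared. Nestin-Cre and Fto Tg were the 2 lowest libraries for 10 of 10 members, an order held by 11.8% of the 15235 genes with a mean of at least 20 counts. Each was below all 3 controls for 10 of 10, against 72.2% of those genes for Nestin-Cre and 29.9% for Fto Tg. Prlr was listed because of its fall in the Fto pair, so its low Fto Tg value was known in advance. The counts that involve Fto Tg are therefore a description. Olig2-Cre was above all 3 controls for 9 members, against 29.6% of genes, and WT was the lowest control for 9 members, against 33.4% of genes. Prlr was the exception in both of the last counts. Fewer plexus cells and less RNA per plexus cell cannot be told apart in such bulk samples.

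In the Nestin-Cre pair all 10 members fell. Folr1 fell 14.8-fold, Aqp1 13.3-fold and Ttr 12.8-fold, while Kl fell 1.82-fold and Prlr 2.02-fold. The read test (the MARS method, which compares a log2 ratio with the spread that read sampling gives; called at a false discovery rate below 0.001 and a fold of at least 1.2) called 53.4% of 18170 genes lower and 11.5% higher in this pair. A member count of 10 therefore stands on a background in which most genes called were lower. With 1 library a group, the test compares 2 libraries and not 2 genotypes.

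Beside the median log2 ratio of -0.72 over all genes tested, the members' median was -2.18, or 4.54-fold lower. Their ratios ran from -3.88 for Folr1 to -0.86 for Kl, with an SD of 1.16, and the SD was 1.27 over all genes tested and 1.11 over those with at least the lowest member's count. Ttr was at -3.68, with a counting interval of -3.72 to -3.65. The intervals of 2 of the other 9 members held that value: Folr1, -4.32 to -3.48, and Aqp1, -4.24 to -3.27. Kcne2 at -2.49, Clic6 at -2.31 and Otx2 at -2.06 fell by less. The remaining members lay closer to the median gene, with Sostdc1 at -1.38, Kcnj13 at -1.32, Prlr at -1.01 and Kl at -0.86.

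These 10 ratios had a rank correlation of -0.43 with GC content and 0.44 with exon length (n = 10 genes within the same pair of libraries, a description). After adjustment for both, the median was -1.46 and the ratios ran from -2.86 to -0.48. With the scaling set by TMM factors, under which the median gene was at -0.03, the members' median was -1.50 and 8 of 10 were called lower. Kl, at -0.18, and Kcnj13, at -0.63, were then not called. The share of all genes called lower given above holds for library totals. None is given here for TMM factors or the GC and length adjustment. An edgeR exact test that took its dispersion from the 3 controls (adjusted p below 0.05) called 7 members lower and 23.3% of all genes. In that test Prlr had an adjusted p of 0.377.

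In the Olig2-Cre pair 5 members rose, 1 fell and 4 were not called. Sostdc1 rose 1.61-fold, Ttr 1.59-fold, Clic6 1.49-fold, Folr1 1.38-fold and Otx2 1.36-fold, and Prlr fell 1.25-fold. Of 17742 genes, 4.95% were called higher and 6.91% lower. Kcne2 at a log2 ratio of 0.36, Aqp1 at 0.30, Kl at 0.15 and Kcnj13 at 0.07 did not pass. The median over members was 0.40 and that over all genes 0.00.

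Of the 9 members beside Ttr, 3 had an interval that held its ratio of 0.67, namely Clic6, Otx2 and Sostdc1. Prlr, at -0.33 with an interval of -0.46 to -0.19, was the sole member below 0. The choice of floxed control bore on these calls. With f/f(N) in place of f/f(O), Prlr was called higher at 0.51, Kl was called higher at 0.32, and Ttr at 0.24 and Folr1 at 0.23 were not called. Adjusted for GC content and length, Prlr was at -0.01. The exact test on control dispersion called 0 of 10 members higher and 0.135% of all genes; the adjusted p of Ttr was 0.653.

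Fto Tg had less of all 10 members than WT, in a pair whose values helped choose the list. Kcnj13 was 4.34-fold lower, Prlr 3.01-fold, Clic6 2.46-fold, Aqp1 2.44-fold, Ttr 2.39-fold, Kcne2 2.33-fold and Otx2 2.31-fold. Kl at 2.13-fold, Folr1 at 2.11-fold and Sostdc1 at 1.84-fold were nearest to WT. All 10 met the threshold for lower, as did 8.51% of 18051 genes, and 6.97% met that for higher. By the size of its ratio Prlr ranked 46 among the 1537 genes called lower, and 13 among the 1441 of those with at least 5 CPM in 1 of both libraries.

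The Fto ratios of the members were all below that of the median gene. Their median was -1.23, over a range of -2.09 to -0.88, beside a median of -0.01 for all genes tested. Their SD was 0.33, about that of the 14501 genes with at least the lowest member's count, 0.35, while the SD of all genes tested was 0.51. Ttr was at -1.25, and 6 of the other 9 intervals held that value: those of Folr1, Clic6, Aqp1, Kcnj13, Otx2 and Kcne2. The 3 outside were Prlr, with an interval of -1.80 to -1.39, Kl, with -1.21 to -0.98, and Sostdc1, with -1.16 to -0.60. Kcnj13 had the lowest ratio and the widest interval, -3.06 to -1.25. The summed level of the 9 genes without Ttr was 167 CPM in WT and 71.7 CPM in Fto Tg, a log2 ratio of -1.22.

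**Figure D2:**
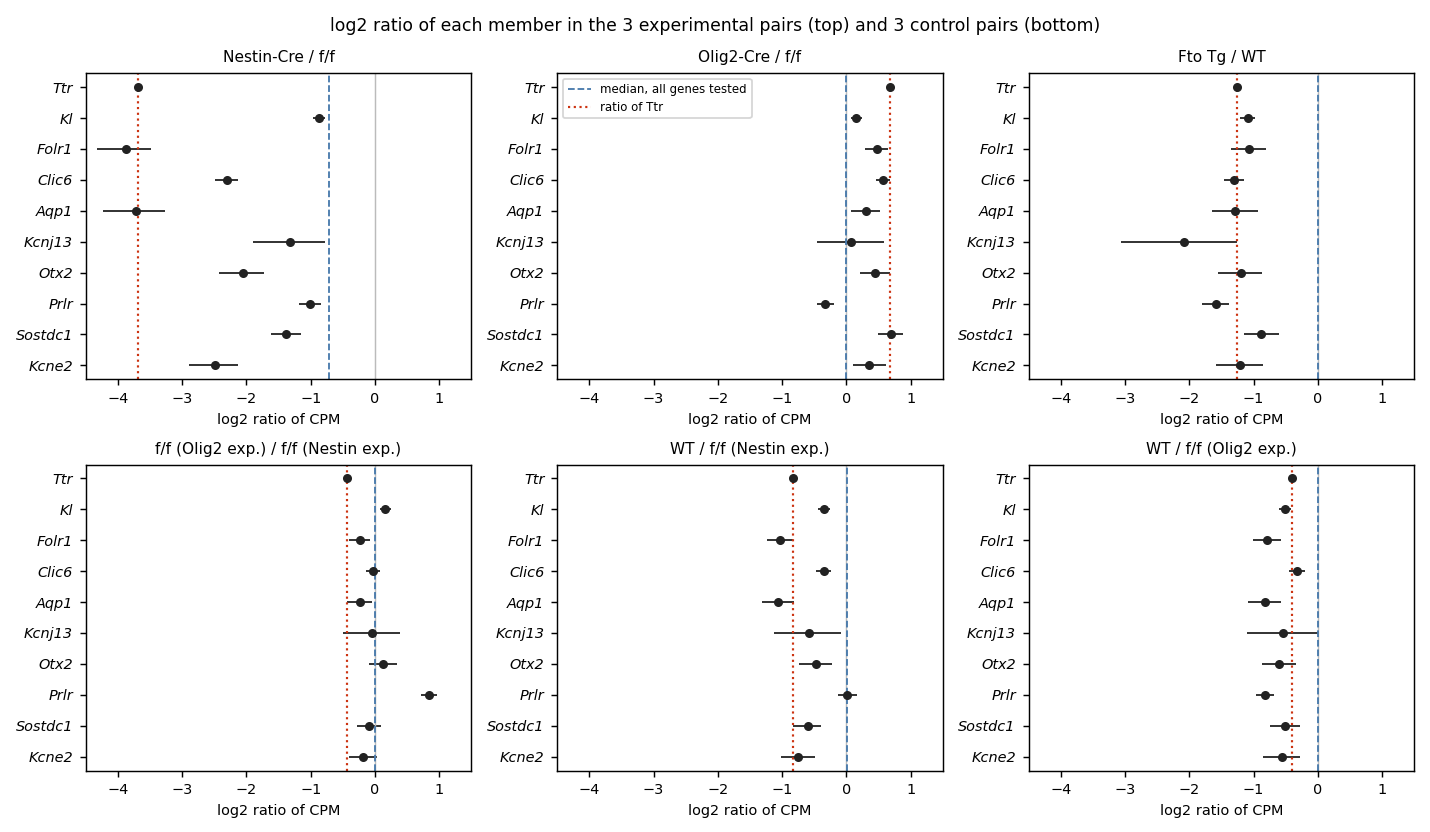
log2 ratios of CPM of the 10 members in the 3 experimental pairs (top) and between the 3 control libraries (bottom); points are ratios, bars 95% counting intervals, the dotted line is the ratio of Ttr and the dashed line the median of all genes tested. The members' SD was 0.33 in the Fto pair and 1.16 in the Nestin-Cre pair. Genes with at least the lowest member's count had SDs of 0.35 and 1.11 in those pairs. Prlr lies right of the others between the f/f libraries.

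The 2 floxed controls have the same labelled genotype and age and come from separate experiments. Whether they differ in other ways was not given in the sources used here. In f/f(O) against f/f(N), Prlr was called higher, by 1.78-fold, and Ttr lower, by 1.35-fold, and the other 8 members were not called. Of 18432 genes, 6.11% were called higher and 7.01% lower. The members' median was -0.07 and their SD 0.35, and without Prlr the SD was 0.19. Prlr, at 0.84 with an interval of 0.71 to 0.96, was higher than 95.4% of genes tested in this pair, while Ttr was at -0.43. The exact test on control dispersion called 0 members lower, with 0.971% of all genes, and gave Prlr an adjusted p of 0.135. That dispersion comes from libraries that include those compared here, so their difference already counts as spread, and a missing call between controls carries no weight.

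WT held less of most members than either floxed control. Against f/f(N), 8 members were called lower, with Aqp1 2.09-fold, Folr1 2.05-fold and Ttr 1.77-fold down. In that pair 8.92% of 18227 genes were called lower and 8.38% higher. Kcnj13 at -0.59 and Prlr at 0.01 were not called, and the median was -0.60. Against f/f(O), 9 members were called lower, Kcnj13 at -0.54 was not, and the median was -0.55, where 3.99% of 18037 genes were called lower and 3.21% higher.

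These 2 comparisons share the WT library with each other and with the Fto pair, so their values stand side by side and are not independent. Prlr was 1.77-fold lower in WT than in f/f(O) and 1.01-fold that of f/f(N), as its level in the floxed controls differed. The exact test on control dispersion called 2 members lower against f/f(N), Folr1 and Aqp1, with 1.37% of all genes, and 0 against f/f(O), with 0.31% of genes. Ttr levels in the 3 controls thus differed by up to 1.77-fold, and those of Aqp1 by up to 2.09-fold.

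Dividing each member by Ttr within a library removes any shift common to the group. Folr1 held 7.08 to 9.32 reads per 1000 Ttr reads and Aqp1 4.70 to 6.47 over all 6 libraries, including Nestin-Cre, where they stood at 7.08 and 5.45. The range over libraries was 1.32-fold for Folr1 and 1.38-fold for Aqp1, while their CPM ranged 17.4-fold and 13.9-fold. Leaving out Nestin-Cre, Kcne2 varied 1.24-fold relative to Ttr, Clic6 1.39-fold, Otx2 1.47-fold, Sostdc1 1.51-fold and Kl 1.55-fold. Kcnj13 and Prlr varied most, 2.01-fold and 2.40-fold.

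In the Nestin-Cre library the other 7 genes stood higher relative to Ttr than anywhere else. Kl was at 198 reads per 1000 Ttr reads there and 28.2 to 43.6 elsewhere, and Prlr at 58.8 against 9.25 to 22.2. Sostdc1 was at 28.1 against 5.69 to 8.59, and Clic6 at 45.5 against 17.5 to 24.3. Otx2, Kcne2 and Kcnj13 were at 11.8, 9.40 and 5.31, above their highest values elsewhere of 5.68, 4.89 and 1.35. Only for Folr1 and Aqp1 was the Nestin-Cre value close to those of the other libraries. The part that the mitochondrial share and GC content of that library had in these ratios was not tested.

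**Figure D3:**
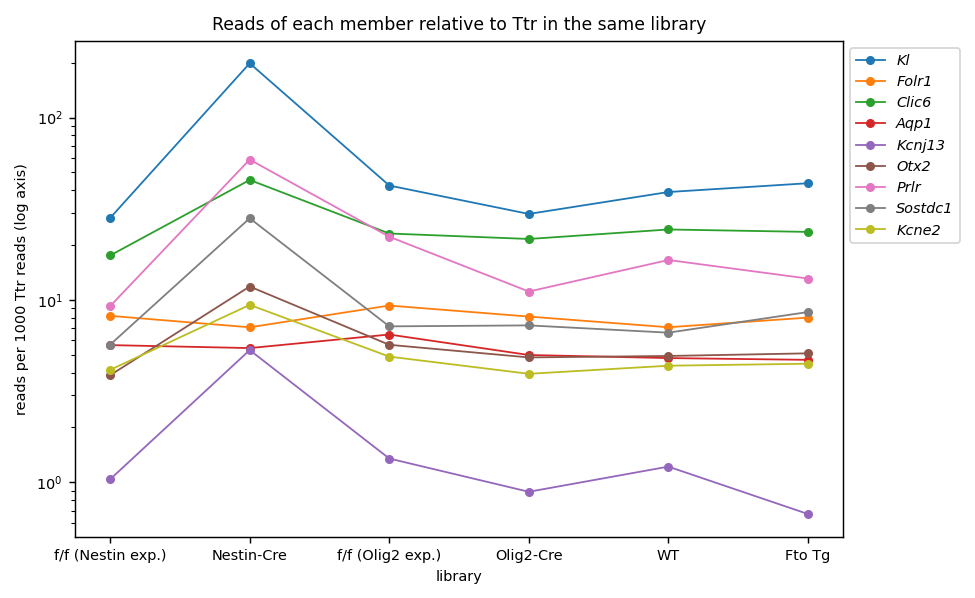
Reads of 9 members per 1000 Ttr reads in the same library, on a log axis, with 1 line per gene; lines join libraries only to guide the eye. Folr1 and Aqp1 stay between 7.08 and 9.32 and between 4.70 and 6.47, whereas the other 7 genes peak in the Nestin-Cre library.

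The 24 further plexus genes had medians of the same sign as the members in all 3 experimental pairs. In the Nestin-Cre pair 24 of 24 fell, with a median log2 ratio of -2.13 beside -0.72 for all genes. The deepest fall was that of 1500015O10Rik, the precursor of a secreted peptide, from 33.7 to 1.24 CPM. With TMM factors the median was -1.45 and 21 of 24 were called lower, and after the GC and length adjustment -1.31 and 18. The share of all genes called under these settings is not given here. In the Olig2-Cre pair 5 rose and 1 fell, with a median of 0.24; Wfdc2, a secreted protease-inhibitor-like protein, rose from 2.17 to 4.24 CPM and Tmem72, a membrane protein, fell from 13.1 to 8.97 CPM.

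In the Fto pair 15 of the 24 were called lower and 0 higher, with 23 of 24 ratios below 0 and a median of -0.87. Tmem72 had the largest drop, from 5.36 to 1.15 CPM. Their summed level was 1496 CPM in f/f(N), 471 with Nestin-Cre, 1448 in f/f(O), 1734 with Olig2-Cre, 1112 in WT and 590 in Fto Tg. Most of each sum was Enpp2, at 1051, 334, 1016, 1249, 789 and 374 CPM in that order. WT was again the lowest control, with 12 of 24 called lower against each f/f library and 0 called higher. Between the f/f libraries 2 were called lower and 1 higher, with a median of -0.12.

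Genes of neighbouring tissue and of other cell types were read in the same pairs. Of 12 ependymal genes, which mark the ciliated lining of the ventricles, 11 were tested. The list summed to 42.2, 34.6, 42.3, 58.3, 45.6 and 45.9 CPM in f/f(N), Nestin-Cre, f/f(O), Olig2-Cre, WT and Fto Tg. With Olig2-Cre 2 ependymal genes rose and 0 fell, median 0.73, and Tmem212 went from 1.86 to 4.35 CPM. That median lay above the members' 0.40, and the part of ependyma in the members' values was not tested. In the Fto pair 0 were called, median 0.16, and in the Nestin-Cre pair 6 fell and 2 rose, among them Pifo, from 1.32 to 0.115 CPM, and Ak7, from 2.90 to 7.97 CPM. The Nestin-Cre balance turned with the scaling, to 2 lower and 3 higher with TMM factors (median -0.30) and 1 lower and 3 higher after the GC and length adjustment (median 0.14).

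The 12 meningeal and fibroblast genes summed to 372, 312, 370, 362, 326 and 327 CPM in the same order. With Nestin-Cre 9 fell, median -1.21, the organic anion transporter Slc22a6 from 9.89 to 2.79 CPM. With TMM factors 6 were lower and 3 higher (median -0.52), and after the GC and length adjustment 4 and 3 (median -0.20). With Olig2-Cre 1 rose, the matrix proteoglycan Dcn from 45.6 to 69.0 CPM, and the median was -0.06. Fto Tg and WT differed in the transporter Slc6a13, at 12.4 and 8.61 CPM, and the matrix protein Ogn, at 8.86 and 14.3 CPM, with a median of 0.09.

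Vessels and the thalamus, which lies below the hippocampus, were read the same way. The 10 endothelial genes had medians of -0.47 (0.21 with TMM factors), 0.23 and 0.21 in the Nestin-Cre, Olig2-Cre and Fto pairs and summed to 344, 218, 364, 434, 365 and 410 CPM over the libraries. The tight junction gene Cldn5 fell from 24.7 to 3.08 CPM with Nestin-Cre and the cadherin Cdh5 rose from 12.8 to 21.0 CPM. The glucose transporter Slc2a1 rose from 122 to 172 CPM with Olig2-Cre. Cldn5 was at 22.3 CPM in WT and 37.7 CPM in Fto Tg and the anion transporter Slco1a4 at 80.4 and 65.8 CPM in the same libraries.

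The thalamic and habenular genes, 9 tested of 10 in the Nestin-Cre and Olig2-Cre pairs and 10 in the Fto pair, had medians of -0.36 (0.33 with TMM factors), -0.17 and -0.27 and summed to 132, 108, 146, 126, 167 and 125 CPM. Synpo2 rose from 5.21 to 9.55 CPM and Ramp3 fell from 3.92 to 0.403 CPM with Nestin-Cre. With Olig2-Cre Prkcd rose from 29.7 to 39.2 CPM and the vesicular glutamate transporter Slc17a6 fell from 35.9 to 16.4 CPM. Nwd2 was at 55.6 and 33.7 CPM in WT and Fto Tg.

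Genes of hippocampal neurons were present in every library, summing to 792, 1185, 789, 817, 716 and 829 CPM. With Nestin-Cre 6 of 10 fell and 2 rose, median -1.27, while the sum was higher through the transcription factor Neurod6, from 182 to 869 CPM; Bok fell from 37.3 to 2.68 CPM. The list had 5 lower and 3 higher with TMM factors (median -0.59), and 3 lower and 4 higher after the GC and length adjustment (median -0.14). With Olig2-Cre 3 rose, among them C1ql2 from 38.9 to 59.8 CPM, and the median was 0.08. Between WT and Fto Tg 6 were called higher and 1 lower, median 0.41, with Bok at 35.4 and 71.4 CPM and Wfs1 at 168 and 137 CPM. Beside the lower members in Fto Tg, the ependymal, meningeal, endothelial and neuronal medians were above 0, while the thalamic list (9 of 10 ratios below 0, 2 called lower) and the partners described next had medians below 0.

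**Figure D4:**
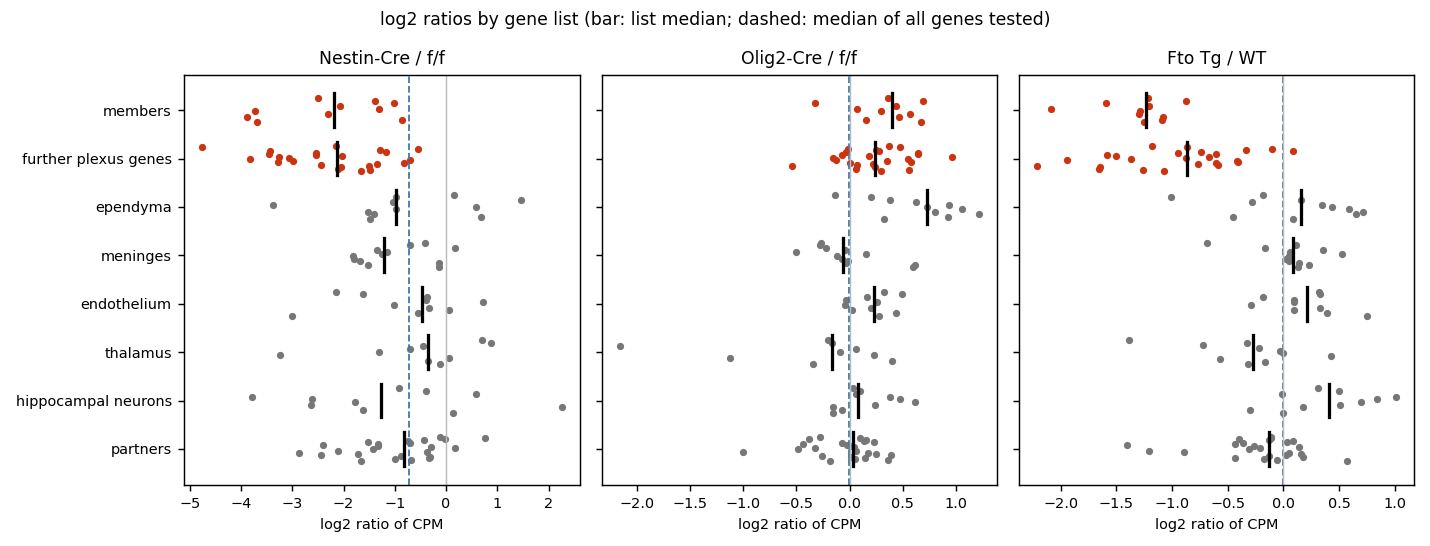
log2 ratios of CPM by gene list in the Nestin-Cre, Olig2-Cre and Fto pairs; each point is 1 gene, the bar is the list median and the dashed line the median of all genes tested, with the horizontal scale set per panel. In the Fto panel the members (median -1.23) and the further plexus genes (-0.87) lie left of the other lists, whose medians run from -0.27 to 0.41.

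A list of 24 genes working with the members (ligand and receptor partners, transporters, signalling steps and pump subunits) had medians nearer to those of all genes. Of these 18 fell and 1 rose with Nestin-Cre, median -0.81 beside -0.72 for all genes. With TMM factors 11 were lower and 6 higher (median -0.13). The folate carrier Slc19a1 fell from 16.6 to 2.24 CPM and the astrocyte water channel Aqp4 rose from 181 to 307 CPM. With Olig2-Cre 1 rose and 4 fell, median 0.03; the receptor Fgfr3 rose from 126 to 165 CPM and the inositol transporter Slc5a3, which partners potassium channels, fell from 53.5 to 38.1 CPM. Of the partners 1 was higher and 7 lower in the Fto pair, median -0.13. The retinol carrier Rbp4 was at 5.12 and 7.60 CPM and Cish, a feedback inhibitor in prolactin receptor signalling, at 2.06 and 0.774 CPM. Summed over the 24 genes the level was 3452, 2095, 3544, 3766, 3674 and 3626 CPM in the order of libraries above.

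The genes whose profile was nearest to the members were found by the root-mean-square difference from the members' median profile, in centred log2(CPM + 0.5) over the 6 libraries, among 15225 genes. The 5 nearest were Prr32 (0.14), Abca4 (0.17), Enpp2 (0.17), Slc2a12 (0.21) and Defb11 (0.21), beside a median of 0.79 over all genes ranked. Prr32 was at 4.88 CPM in f/f(N), 0.662 with Nestin-Cre, 4.69 in f/f(O), 6.23 with Olig2-Cre, 3.81 in WT and 1.09 in Fto Tg. Abca4, a lipid transporter, was at 14.5, 3.34, 14.2, 14.8, 10.3 and 3.81 CPM in that order. Of the 24 further plexus genes, 16 were among the 50 nearest, and 18 when Nestin-Cre was left out. Among the members, Otx2 (0.03) and Kcne2 (0.10) lay nearest to the shared profile and Ttr (0.55) and Folr1 (0.49) farthest from it. Likeness over 6 libraries is a description and the ranking of members was fixed in part by their own values.

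Setting both Cre libraries against both floxed controls gave no call. edgeR's quasi-likelihood test found 0 of 16921 genes (0.0%) at an adjusted p below 0.05, and 143 genes at an unadjusted p below 0.05. DESeq2 called 3 genes and the fit with experiment as a block called 2. The members' median log2 ratio was -0.29, and their lowest adjusted p was 0.955. Both Cre libraries moved most members in opposite directions, and the biological coefficient of variation was 0.399, beside 0.133 over the controls. Without the Nestin-Cre library the members' median was 0.30. Without the Olig2-Cre library it was -1.51, with Ttr at -2.78. Such a fit assumes that the lone Nestin-Cre library varies like the f/f controls, so no conclusion is drawn from its calls.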

How the data were processed

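RNA came from hippocampus, mRNA was selected on beads and libraries were made with an Illumina TruSeq kit. The authors deposited whole-number read counts per gene, with no normalization. Per the study's methods, reads were trimmed, aligned to mm10 and counted per Ensembl gene in union mode without strand, from unique alignments of mapping quality 20 or more; the submitters' processing notes name TopHat2 2.0.9 and HTSeq 0.6. Reads on bases shared by 2 genes were thus dropped. Read layout (single or paired) is stated in 2 ways, which leaves the unit unchanged but not its precision.

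The counts were scaled by library totals to CPM. Symbols, exon lengths and GC content came from GENCODE M21 (GRCm38); 95.0% of identifiers had a symbol. Promoters came from RefSeq (GRCm38.p6). Wilson 95% intervals were given for single values and exact binomial ones for ratios; PCR copies are not independent, so they cover counting error only. Pairs of libraries were tested by the MARS formulas of DEGseq, the study's method (false discovery rate below 0.001, fold of at least 1.2, at least 10 counts over the pair). The pooled Cre contrast, 2 libraries against 2, used edgeR 4.0.16 (quasi-likelihood, TMM, adjusted p below 0.05). Alternatives were TMM, DESeq2 1.42.0 size factors and Wald test, totals without mitochondrial genes, a GC and length adjustment, the other f/f control, and an edgeR exact test on the dispersion estimated from the 3 controls, whose adjusted p-values are those of the pairs. The MARS formulas and the Cre contrast were also run on simulated counts. The first simulation held no spread between libraries, and the second used the dispersion of the controls, below that of the Cre contrast. Neither shows how the tests perform on these data. Software was Python 3.11.15, numpy 2.4.6, pandas 2.3.3, scipy 1.17.1 and R 4.3.3.

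Named are all 10 members, Prrc2a, Fto, the largest called rise and fall of each gene list per pair, and the 5 nearest profiles (mean of at least 20 counts); further genes named to show the range of a list were chosen after their values were seen. The members and lists were chosen with earlier results of these data known.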

Additional observations from a re-analysis of the deposited data

Results flagged for a closer look

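Among the members, 5 had log2 ratios that were called in opposite directions with Nestin-Cre and with Olig2-Cre, each against the f/f library of its own experiment. The difference, Nestin-Cre minus Olig2-Cre, was -4.352 for Ttr, -4.347 for Folr1, -2.876 for Clic6, -2.501 for Otx2 and -2.065 for Sostdc1. With 1 library per group the difference itself was not tested. The read test called 53.4% of all genes lower in the Nestin-Cre pair, and 4.95% higher in the Olig2-Cre pair. The share of all genes that met both is not given here, so the count of 5 is a description. For the Olig2-Cre pair, the exact test on control dispersion called 0 members higher. With f/f(N) in place of f/f(O), Ttr at 0.24 and Folr1 at 0.23 were not called. In the Nestin-Cre library 26.2% of reads were mitochondrial, and the part of that in the difference was not tested.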

How the results depend on the processing

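Scaling moved the members' median log2 ratio in the Nestin-Cre pair, which was -2.18 by library totals: it was -1.50 with TMM factors (-1.50 in the exact test as well), -1.47 with DESeq2 size factors, -1.86 without mitochondrial genes and -1.46 after the GC and length adjustment. The exact test on control dispersion called 0 members higher with Olig2-Cre, 0 lower between the f/f libraries, and 2 and 0 lower in WT against f/f(N) and f/f(O); it allows for spread between libraries, and between controls that spread includes the difference tested. In the Fto pair, which helped choose the list, it did not call Folr1 and Sostdc1. The share of all genes it called in that pair is not given here, so this is a description. Prlr in the Olig2-Cre pair reversed with the other f/f control, to 0.51. In the Cre contrast, DESeq2 called 3 genes and the experiment block 2, and leaving out each library in turn gave 0 to 8480 genes and 0 to 7 members; Sostdc1, 0.14 with all libraries, was -0.63 without Olig2-Cre and 0.64 without Nestin-Cre. The upper ends of those leave-out counts came from the fit without Olig2-Cre, in which 17747 genes were tested. That fit assumes that the lone Nestin-Cre library varies like the f/f controls, so no conclusion is drawn from its counts. Of the single-gene values, 415 stayed on their side of the threshold (uncalled ones could change sign). A further 37 lost the call, 8 gained it and 2 reversed. Of the summaries 59 kept and 15 moved. The nearest-profile alternatives, without Nestin-Cre (18 of 24 further genes among the 50 nearest) and with TMM (15), were chosen after seeing the data. No paired analysis was possible because the groups share 1 replicate number only, given in accession order; the experiment block above pairs libraries by experiment. Kcnj13, with 15 to 100 reads, had the least depth of the members.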

Other observations

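The 24 further plexus genes also spread unevenly. In the Fto pair Igfbp2, which binds insulin-like growth factors, was at 47.1 CPM in WT and 49.8 in Fto Tg, and the carbonic anhydrase Car12 at 37.3 and 34.7 CPM, while coagulation factor F5 was at 17.6 and 4.56 CPM. In the Nestin-Cre pair Igfbp2 went from 75.1 to 6.90 CPM and Car12 from 46.7 to 31.9 CPM. These genes were chosen after their values were seen.

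Over the 10 members and the 24 further genes together, 34 of 34 log2 ratios were below 0 in the Nestin-Cre pair and 33 of 34 in the Fto pair. Across those 34 genes the ratio in the Nestin-Cre pair had a rank correlation of 0.70 with exon length and -0.41 with GC content, and in the Olig2-Cre pair of -0.65 with exon length and 0.02 with GC content. In the Fto pair the values were -0.19 and 0.41. Genes of 1 pair of libraries are not independent, and the correlations are given as a description. After adjustment for GC content and length over all genes, 33 of 34 ratios stayed below 0 in the Nestin-Cre pair, with a median of -1.35, and 33 of 34 in the Fto pair, with a median of -1.13.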
